A study of Saccharomyces cerevisiae with 17 samples.

Results

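The comparison set a Saccharomyces cerevisiae strain labelled BY4742::FLO8 against its parent strain, BY4742 wild type, after growth on the ground. It rests on 6 of the 17 Affymetrix Yeast Genome 2.0 arrays of the series, the 3 titled FLO8 Ground and the 3 titled WT Ground, chosen by those titles. BY4742 is a haploid laboratory strain of mating type alpha that descends from S288C and carries mutations in HIS3, LEU2, LYS2 and URA3. All 6 cultures were loaded in saline, started by injection of rich YPD medium and grown in liquid for 72 h at 23 °C. A programmable incubator replayed the temperatures logged during a flight on the International Space Station. The cells were then filtered and fixed in RNAlater. The FLO8-labelled strain in flight (3 arrays), the wild type in flight (3 arrays) and a BY4742 strain overexpressing FLO1, grown on the ground (3 arrays), were used only where named. The labels give neither the construct behind BY4742::FLO8, its promoter, nor the number of clones, and they do not say whether replicates were separate cultures, so the p-values measure the spread between these samples, which may be technical.

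Flo8 is a transcription factor that acts below the cyclic AMP and protein kinase A pathway. It binds the promoters of flocculin genes, which encode the cell wall glycoproteins that let yeast cells stick to each other and to surfaces. Flo11 is the flocculin of invasive and filamentous growth and of mats and biofilms, whereas Flo1, Flo5, Flo9 and Flo10 bind mannose chains on neighbouring cells and cause flocculation. Strains of the S288C lineage carry a nonsense mutation in FLO8 and do not flocculate, and the RefSeq annotation of the S288C assembly R64 lists FLO8 as a pseudogene.

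Values are log2 probe set levels as deposited, 1 probe set per gene and 5449 genes. A gene was called at an adjusted p under 0.05 in limma's moderated test on the 6 arrays, with Benjamini-Hochberg adjustment over all 5449 genes. The 95th percentile of the Schizosaccharomyces pombe probe sets on the same arrays, 4.61 log2, was taken as the limit under which signal is background. The array medians over all genes lay between 9.88 and 9.90 in the FLO8-labelled strain and between 9.84 and 9.88 in the wild type. The 3′ minus 5′ signal of 7 control genes, a sign of RNA integrity, was 1.07 to 1.19 in the FLO8-labelled strain and 1.04 to 1.14 in the wild type. Wild-type replicate 3 stood apart. Its highest correlation with any of the other 5 arrays was 0.9777, below the lowest correlation among those 5 (0.9784), and the root mean square distance of the arrays from their group mean was 0.14 in the FLO8-labelled strain and 0.26 in the wild type.

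The gene that the label names was lower in the strain that carries the label. The FLO8 probe set read 7.87, 7.83 and 7.58 log2 in the FLO8-labelled strain, against 9.24, 9.51 and 9.14 log2 in the wild type. All 3 FLO8-labelled arrays lay below all 3 wild-type arrays, a difference of -1.54 log2 (SE 0.14), or 2.90-fold lower (limma adjusted p = 0.0296). The files do not say which part of FLO8 the probes read or which part of the gene the construct changed, and the labels do not settle whether BY4742::FLO8 holds an added functional FLO8 or a disrupted one. The strain is therefore called by its label, and the lower FLO8 signal is given as measured.

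None of the other genotype markers was called. URA3 read 3.54, 3.75 and 3.60 log2 in the FLO8-labelled strain and 3.73, 3.55 and 3.66 log2 in the wild type, below the background level on every array. LYS2 averaged 3.83 log2 in the FLO8-labelled strain and 3.78 log2 in the wild type, also below background. LEU2 averaged 5.03 log2 in the FLO8-labelled strain and 5.18 log2 in the wild type, just above it. These genes make uracil, lysine and leucine, and BY4742 is known to lack them. HIS3, for histidine synthesis, gave 10.13 log2 in the FLO8-labelled strain and 9.88 log2 in the wild type, a difference of 0.26 whose groups did not overlap and which was not called (adjusted p = 0.450). Of the annotated neighbours of FLO8 in assembly R64, the nucleoporin genes NUP157 (0.25) and GLE2 (-0.02), the importin gene KAP123 (0.05), the cell cycle factor gene SWI4 (-0.15) and the RNA processing gene LSM4 (-0.20) differed by at most 0.25 log2 either way and none was called. MAM1, a meiotic chromosome gene, differed by -1.35 log2 (SE 0.50, adjusted p = 0.423). Its wild-type arrays read 8.70, 7.10 and 6.51 log2, with replicate 1 far above the other two.

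Of the 5449 genes, 9 were called, 0.165% of those tested. FLO11, FLO1, TIR2 and FUS3 rose (4 genes, 0.0734%), and FLO8, STL1, YLR012C, HPF1 and HTL1 fell (5 genes, 0.0918%). The calls held by a narrow margin, with adjusted p between 0.0296 and 0.0493. At an unadjusted p under 0.05 the test passed 593 genes, 10.9%, of which 282 were higher (5.18%) and 311 lower (5.71%). After centring each array on its median, that split was 205 higher and 383 lower. The groups did not overlap for 594 genes that were higher (10.9%) and 446 that were lower (8.18%), so separation of the 3 arrays a group was common. Differences above 0 were found for 2900 of the 5449 genes, the base for the counts above or below 0 given for the lists. The groups share replicate numbers, but the labels do not say that same-numbered samples belong together. FLO8-labelled replicate 1 deviated more with wild-type replicate 2 (correlation 0.56) than with wild-type replicate 1 (0.10), so this pairing is uncertain. With the number as a block 22 genes were called, the same 9 and 13 more. The count was 0 without any 1 of wild-type replicates 1 or 2 or FLO8-labelled replicates 1 or 2, 1 (FLO11) without FLO8-labelled replicate 3, and 85 without wild-type replicate 3. Among the genes named here, AGA2, ROX1, MET28, STE4, STE18, SPS100, PDE2, HXT1, RRP7 and RPS19A were called without that array and not with it. So were MIG2, CMR3, YAL064W, YHR054C, YMR175W-A, SLF1, CSN9 and BNR1. The count was also 0 with the 3′ minus 5′ signal as a covariate, and the size of each of the 9 differences moved by at most 0.46 log2 under all alternatives run.

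**Figure D1:**
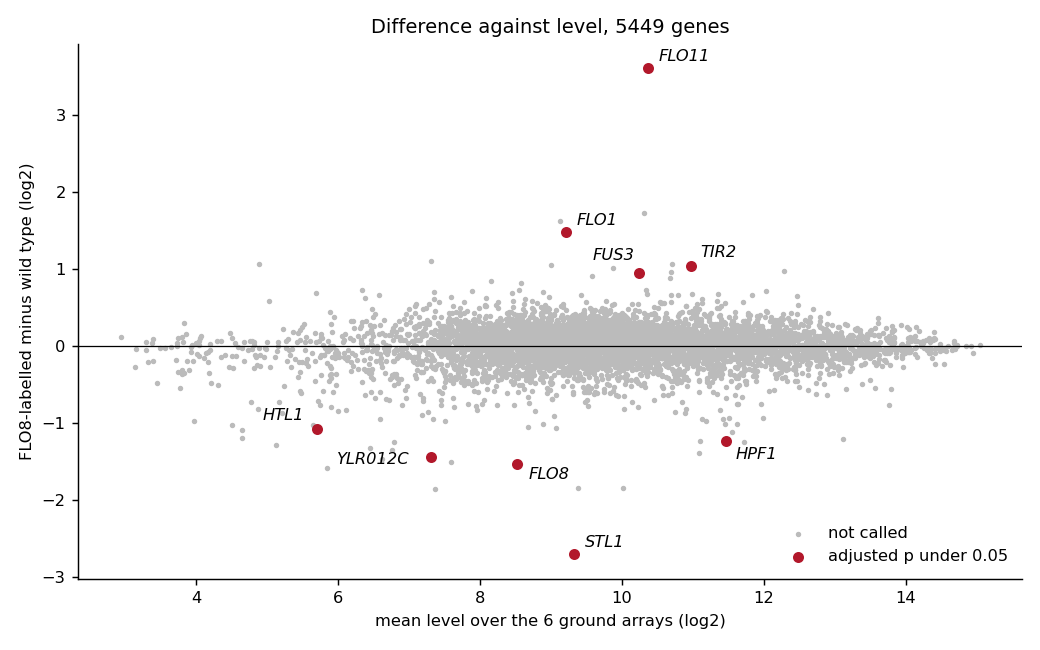
Difference between the FLO8-labelled strain and the wild type (log2, vertical axis) against the mean level over the 6 ground arrays (log2, horizontal axis) for 5449 genes, 1 point a gene. The 9 called genes are named in red; FLO11 at 3.61 and STL1 at -2.71 lie farthest from 0.

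FLO11 was the gene with the greatest difference in either direction. It read 12.75, 12.53 and 11.24 log2 in the FLO8-labelled strain, against 8.49, 8.67 and 8.54 log2 in the wild type. The 3 wild-type arrays lay close together, whereas FLO8-labelled replicate 3 was clearly below the other two and still far above every wild-type array. FLO11 was 3.61 log2 higher (SE 0.36), or 12.2-fold (adjusted p = 0.0296). In a population of cells, a higher share of cells that express FLO11 and more FLO11 RNA per cell cannot be told apart. On one side of FLO11 in assembly R64, the sulfur gene regulator MET28 differed by 0.48 log2 (adjusted p = 0.389), the iron-responsive factor gene YAP5 by 0.06 and YIR018C-A by 0.17. None of those 3 neighbours was called, and the 3 annotated on the other side were not measured.

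FLO1, the dominant flocculin gene of flocculating strains, read 9.87, 10.20 and 9.76 log2 in the FLO8-labelled strain, against 8.20, 8.46 and 8.74 log2 in the wild type. The groups did not overlap, and FLO1 was 1.48 log2 higher (SE 0.18), or 2.79-fold (adjusted p = 0.0408). FLO9, a close relative of FLO1, had 11.34, 11.50 and 11.13 log2 in the FLO8-labelled strain, against 10.76, 10.74 and 10.44 log2 in the wild type. Its groups also did not overlap, but the difference of 0.67 log2 (SE 0.15) was not called (adjusted p = 0.249), and its probe set is of the kind that can read related genes. FLO10 averaged 9.78 log2 in the FLO8-labelled strain and 9.57 log2 in the wild type, with overlapping groups and a difference of 0.21 log2 (adjusted p = 0.764). FLO5 was not measured.

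None of the adhesins of mating was called. AGA2, the binding subunit of the a-agglutinin that a cells display, read 6.0, 5.98 and 6.49 log2 in the FLO8-labelled strain, against 7.25, 7.22 and 7.75 log2 in the wild type. The groups did not overlap. The difference of -1.25 log2 (SE 0.20) had an adjusted p of 0.140, and of 0.00610 with the replicate block. In flight AGA2 differed by 0.07 log2 (SE 0.40), with overlapping groups. The limma test of ground against flight gave AGA2 an unadjusted p of 0.0198 and an adjusted p of 0.999. AGA1, which anchors Aga2 in the wall, differed by -0.23 log2, the alpha-agglutinin gene SAG1 by 0.17 and FIG2, a mating adhesin, by 0.23. Of the 8 flocculin and adhesin genes measured, 2 were called higher and 0 were called lower, where 0.165% of all genes were called. At an unadjusted p under 0.05, 3 of the 8 were higher and 1 lower, against 10.9% of all genes in either direction. The groups did not overlap for 4 higher and 1 lower members. Differences lay above 0 for 6 members and below 0 for 2, with a median of 0.22 log2 against 0.02 over all genes.

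**Figure D2:**
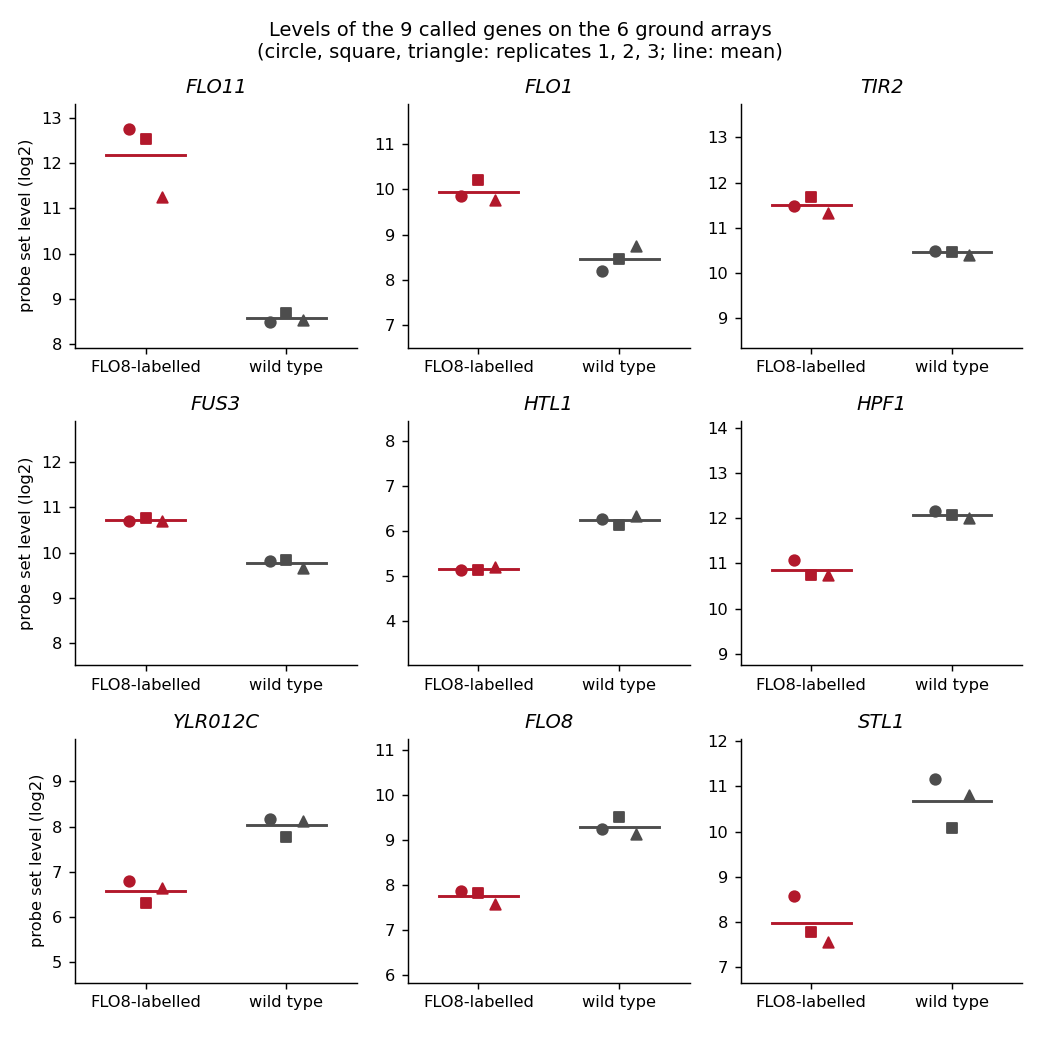
Probe set level (log2, vertical axis) of each of the 9 called genes on the 3 FLO8-labelled and 3 wild-type ground arrays; symbols mark replicates 1 to 3, lines the group means, and every panel spans the same number of log2 units. The groups do not overlap in any panel, and FLO11 replicate 3 of the FLO8-labelled strain lies below the other two.

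The remaining called genes had varied roles. TIR2, a mannoprotein of the cell wall made in the cold and without oxygen, read 11.48, 11.69 and 11.33 log2 in the FLO8-labelled strain, against 10.50, 10.47 and 10.40 log2 in the wild type. It was 1.04 log2 higher (SE 0.13), or 2.06-fold (adjusted p = 0.0408). FUS3, the mitogen-activated protein kinase of the mating pathway, had 10.70, 10.76 and 10.71 log2 in the FLO8-labelled strain, against 9.81, 9.84 and 9.66 log2 in the wild type. Both groups of FUS3 were tight, and it was 0.95 log2 higher (SE 0.11), or 1.93-fold (adjusted p = 0.0356).

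STL1, a glycerol and proton symporter that is induced by osmotic stress and repressed by glucose, read 8.58, 7.78 and 7.55 log2 in the FLO8-labelled strain, against 11.17, 10.07 and 10.81 log2 in the wild type. It fell by 2.71 log2 (SE 0.35), or 6.55-fold (adjusted p = 0.0493), the greatest decrease among all called genes and the call nearest the threshold. HPF1, a wall mannoprotein that lowers protein haze in wine, had 11.08, 10.74 and 10.74 log2 in the FLO8-labelled strain, against 12.17, 12.08 and 12.01 log2 in the wild type. HPF1 fell by 1.23 log2 (SE 0.13, adjusted p = 0.0353). HTL1, a subunit of the RSC chromatin remodelling complex, had 5.14, 5.14 and 5.21 log2 in the FLO8-labelled strain, against 6.27, 6.14 and 6.32 log2 in the wild type, levels near the low end of the array's range. HTL1 fell by 1.08 log2 (SE 0.11, adjusted p = 0.0296). YLR012C, an open reading frame with no gene name in the annotation, averaged 6.58 ± 0.24 log2 in the FLO8-labelled strain and 8.02 ± 0.22 log2 in the wild type (SD, n = 3 each; limma adjusted p = 0.0408).

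TIR2 belongs to the hypoxic and anaerobic genes, which S. cerevisiae transcribes when oxygen and heme are low. Heme normally keeps part of them off through the repressor Rox1, and the list used here also holds regulators, ROX1 among them. This list gave the highest median of the 60 lists measured on all 6 arrays, 0.30 log2 over 25 genes, and 1 of its genes was called. At an unadjusted p under 0.05, 10 of the 25 were higher and 1 lower, 44.0% against 10.9% of all genes. The groups did not overlap for 11 higher and 2 lower members, against 10.9% and 8.18% of all genes. TIR3, another wall mannoprotein of this family, read 11.03, 11.60 and 10.90 log2 in the FLO8-labelled strain, against 10.45, 10.28 and 9.93 log2 in the wild type. It differed by 0.96 log2 (SE 0.22, adjusted p = 0.276). ANB1, the anaerobic form of the translation factor eIF5A, differed by 0.68 log2 (SE 0.16, adjusted p = 0.302), again with separate groups.

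ROX1 itself was among the members lower in the FLO8-labelled strain. It read 10.60, 10.49 and 10.39 log2 there, against 11.50, 11.34 and 11.11 log2 in the wild type. The difference of -0.82 log2 (SE 0.13) was not called (adjusted p = 0.140) and was called with the replicate block (adjusted p = 0.0452). AAC3, the anaerobic ADP/ATP carrier, differed by 0.57 log2 (adjusted p = 0.368). The list as a whole was less separate than its leading members, because the list's median level was 11.11, 11.33 and 10.65 log2 in the FLO8-labelled strain and 10.69, 10.73 and 10.40 log2 in the wild type, so that FLO8-labelled replicate 3 overlapped the wild type. Without wild-type replicate 3 the list's median difference was 0.22 log2, below that of the flocculins and adhesins (0.28) and of the maltose and subtelomeric sugar genes (0.27). In flight, on other arrays, the same 25 genes had a median difference of 0.29 log2, with 18 above 0, against a median of -0.02 log2 over all genes.

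**Figure D3:**
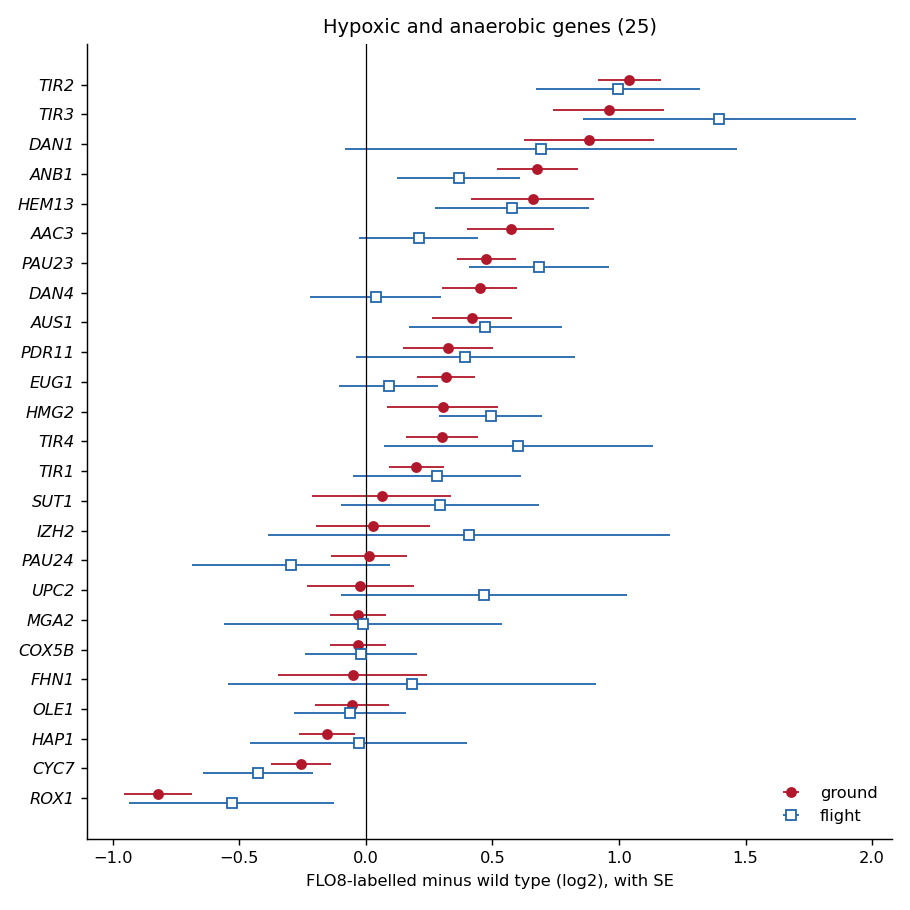
Difference between the FLO8-labelled strain and the wild type (log2, horizontal axis, with SE) for the 25 hypoxic and anaerobic genes, on the ground (filled circles) and in flight (open squares). TIR2 (1.04) and TIR3 (0.96) lie at the top and ROX1 (-0.82) at the bottom on the ground, and the flight bars are wider.

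Among 26 genes known to act on the FLO11 promoter, FLO8 was the sole member called. At an unadjusted p under 0.05, 4 were higher and 3 lower, 26.9% against 10.9%, and the median difference was 0.08 log2. ASH1, a daughter cell regulator that is needed for filamentous growth, read 11.90, 11.98 and 12.10 log2 in the FLO8-labelled strain, against 11.42, 11.56 and 11.27 log2 in the wild type (0.57, adjusted p = 0.249). MIT1, an activator of flocculin genes, had 9.82, 9.99 and 9.44 log2 in the FLO8-labelled strain, against 8.98, 9.29 and 9.01 log2 in the wild type (0.66, adjusted p = 0.350). Both separated the groups. HMS1, a filamentation factor, differed by 0.90 log2 (adjusted p = 0.420) and the activator PHD1 by 0.97 log2 (adjusted p = 0.423). HMS1 and PHD1 also separated the groups, but their wild-type spread was wide. PHD1 read 12.01, 12.48 and 10.88 log2 in the wild type but 12.80, 12.76 and 12.73 log2 in the FLO8-labelled strain. The lower members at an unadjusted p under 0.05, besides FLO8, were STE12 (-0.28, adjusted p = 0.450) and NRG1 (-0.32, adjusted p = 0.459).

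The signalling genes above Flo8 were not called on the 6 arrays. Of 18 cyclic AMP and protein kinase A genes, 0 were called and 0 had an unadjusted p under 0.05 in limma, with a median difference of 0.02 log2. PDE2, a phosphodiesterase that degrades cyclic AMP, differed by -0.54 log2 (adjusted p = 0.524), with overlapping groups. It was lower in the FLO8-labelled strain than in wild-type replicates 1 and 2 and not than in replicate 3, which read 10.24 log2 against 10.40, 10.31 and 10.59 log2 in the FLO8-labelled strain. Without that array PDE2 was called at -0.91 log2 (adjusted p = 0.0213). The G protein gene GPA2 differed by 0.17 log2, the receptor gene GPR1 by -0.17 and the Ras exchange factor gene CDC25 by 0.20. Of 20 genes of the filamentous growth kinase pathway and its targets, 0 were called, 2 were higher at an unadjusted p under 0.05 and 0 lower, a share of 10% against 10.9% of all genes, and the median was 0.09 log2. Those 2 were PGU1, a secreted pectin-cutting enzyme (0.62, adjusted p = 0.356), and BUD8, the landmark of the distal bud site (0.40, adjusted p = 0.451). The ammonium sensor gene MEP2 differed by -0.68 log2 (adjusted p = 0.481) and the G1 cyclin gene CLN1 by 0.37 (adjusted p = 0.504), both with overlapping groups.

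The mating type of both strains was checked with marker genes. The 5 alpha cell markers had means between 10.12 and 12.15 log2 in the FLO8-labelled strain and between 10.06 and 12.09 log2 in the wild type, and 0 of them were called. Their summed level was 13.61 to 13.75 log2 in the FLO8-labelled strain and 13.50 to 13.63 log2 in the wild type. The 7 a cell markers had means between 6.16 and 9.80 log2 in the FLO8-labelled strain and between 6.69 and 9.89 log2 in the wild type, and none of them lay at the background level. Their summed level was 11.11 to 11.59 log2 in the FLO8-labelled strain and 11.28 to 11.46 log2 in the wild type, so the ranges overlapped. The part of these levels in other results was not tested.

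FUS3 is also a marker of haploid cells, and it was the sole one of 7 to be called. An unadjusted p under 0.05 was found for 2 higher and 1 lower members, 42.9% against 10.9% of all genes. STE4 and STE18, the beta and gamma subunits of the mating G protein, differed in opposite directions. STE4 read 11.68, 11.70 and 11.58 log2 in the FLO8-labelled strain, against 11.00, 11.15 and 11.23 log2 in the wild type (0.52, adjusted p = 0.249). STE18 read 8.77, 8.49 and 8.74 log2 in the FLO8-labelled strain, against 9.53, 9.30 and 9.24 log2 in the wild type (-0.69, adjusted p = 0.227). Neither was called, though neither overlapped between groups. FAR1, an inhibitor of the G1 cyclin kinase, differed by 0.29 log2 (adjusted p = 0.560).

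Of 24 pheromone response genes, FUS3 was called higher and 0 were called lower, and the median was -0.03 log2. An unadjusted p under 0.05 was found for 2 higher and 3 lower members, 20.8% against 10.9% of all genes. PRM5 (-0.47), PRM10 (-1.05) and PRM7 (1.73), all named for their induction by pheromone, had separate groups and adjusted p from 0.249 to 0.369. PRM7 was tight in the engineered strain and spread in its parent, with 11.23, 11.10 and 11.22 log2 in the FLO8-labelled strain, against 9.51, 10.67 and 8.18 log2 in the wild type. Of 46 meiosis and sporulation genes, 0 were called, and 2 were higher and 7 lower at an unadjusted p under 0.05, 19.6% against 10.9% of all genes. SPS100, a spore wall gene, read 12.63, 12.32 and 12.59 log2 in the FLO8-labelled strain, against 13.57, 13.36 and 14.26 log2 in the wild type (-1.22, adjusted p = 0.227). IME1, the master inducer of meiosis, read 10.56, 10.27 and 8.99 log2 in the FLO8-labelled strain, against 9.0, 8.74 and 7.23 log2 in the wild type. Replicate 3 was the lowest for IME1 in both strains, and the difference of 1.62 log2 had an adjusted p of 0.399 without the replicate block and 0.00289 with it. SPS100 too was called with the block (adjusted p = 0.0344). In flight SPS100 differed by 0.44 log2, the opposite sign. The test of ground against flight gave SPS100 an unadjusted p of 0.00228 and an adjusted p of 0.999 (limma). IME1 differed by 0.04 log2 (SE 0.68) in flight, with overlapping groups.

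Wall genes differed in both directions. Of 23 structural mannoproteins, HPF1 was called lower and 0 were called higher, and the median was -0.07 log2. At an unadjusted p under 0.05, 1 of the 23 was higher and 2 lower, against 10.9% of all genes in either direction. PIR3, a protein linked to wall glucan, read 12.75, 12.66 and 12.38 log2 in the FLO8-labelled strain, against 13.36, 12.94 and 12.96 log2 in the wild type (-0.49, adjusted p = 0.381). WSC4 differed by 0.60 log2 (adjusted p = 0.423) and the mannoprotein gene TIP1 by 0.25 (adjusted p = 0.481). Of 32 wall remodelling enzymes, 0 were called and 24 lay above 0, with a median of 0.11 log2, and of 0.02 log2 without wild-type replicate 3. In that list the chitin synthase genes CHS2 (0.51, adjusted p = 0.372) and CHS3 (0.35, adjusted p = 0.415) and the glucan synthesis gene KNH1 (-0.58, adjusted p = 0.350) had separate groups. Of 13 seripauperin (PAU) genes, whose probe sets often read several family members, 0 were called. PAU23 (0.48, adjusted p = 0.331) and PAU21 (-0.57, adjusted p = 0.249) differed in opposite directions.

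Osmotic and sugar transport genes were examined next to STL1. Of 22 osmotic stress and glycerol genes, STL1 was called lower and 0 were called higher, and the median was -0.04 log2. An unadjusted p under 0.05 was found for 0 higher and 3 lower members, 13.6% against 10.9% of all genes. GRE2, a stress-induced reductase, read 11.39, 11.46 and 11.72 log2 in the FLO8-labelled strain, against 12.66, 11.71 and 13.01 log2 in the wild type, with overlap at wild-type replicate 2 (-0.94, adjusted p = 0.383). YPD1, the phosphorelay protein of the osmosensor, differed by -0.33 log2 (adjusted p = 0.410). Of 20 hexose transporters and sensors, 0 were called. HXT1, the low-affinity glucose transporter, read 8.70, 8.46 and 8.22 log2 in the FLO8-labelled strain, against 11.54, 9.97 and 9.40 log2 in the wild type. HXT3, of the same class, read 10.99, 10.90 and 11.09 log2 in the FLO8-labelled strain, against 12.68, 11.82 and 11.83 log2 in the wild type. In both, wild-type replicate 1 was the highest array, and the differences of -1.84 and -1.12 log2 had adjusted p of 0.350 and 0.249. GAL2, the galactose permease, differed in the other direction, with separate groups (0.71, adjusted p = 0.331). Without wild-type replicate 3, HXT1 was called at -2.29 log2 (adjusted p = 0.0459).

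Genes of ribosome assembly gave the lowest median of the 60 lists on all 6 arrays. Of 70 ribosome biogenesis genes, 0 were called, 64 lay below 0, and the median was -0.24 log2. At an unadjusted p under 0.05, 14 were lower and 0 higher, 20.0% against 10.9%. NOP16 read 9.42, 9.28 and 9.27 log2 in the FLO8-labelled strain, against 10.05, 9.82 and 9.90 log2 in the wild type (-0.60, adjusted p = 0.227). RRP8 (-0.42), RRP7 (-0.55) and NOP53 (-0.50) had adjusted p of 0.356 each. The order of whole arrays was different, since the list's median level was 9.09, 9.23 and 9.10 log2 in the FLO8-labelled strain, against 9.73, 9.47 and 9.01 log2 in the wild type. Wild-type replicate 3 lay below every FLO8-labelled array there, and without it the list's median was -0.46 log2. Of the 70 genes 8 were then called, all lower, against 85 of all 5449 genes, 73 of them lower. In flight the median was -0.15 log2.

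The 128 ribosomal protein genes had a median of -0.09 log2 with 90 below 0, and 0 were called. Their median was -0.31 log2 without wild-type replicate 3 and as high as 0.05 log2 with another array left out. In flight it was 0.22 log2, with 104 of the 128 above 0, against a median of -0.02 log2 over all genes. RPS19A, a protein of the small subunit, read 10.82, 10.65 and 10.48 log2 in the FLO8-labelled strain, against 11.71, 11.60 and 11.49 log2 in the wild type (-0.95, adjusted p = 0.0627). It was called with the replicate block (adjusted p = 0.0240). Of 34 proteasome genes 30 lay below 0 with a median of -0.17 log2 (-0.06 without wild-type replicate 3), and of 9 histone genes 8 lay below 0 with a median of -0.19 log2, led by HHT1 (-0.45, adjusted p = 0.356). None of these was called.

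**Figure D4:**
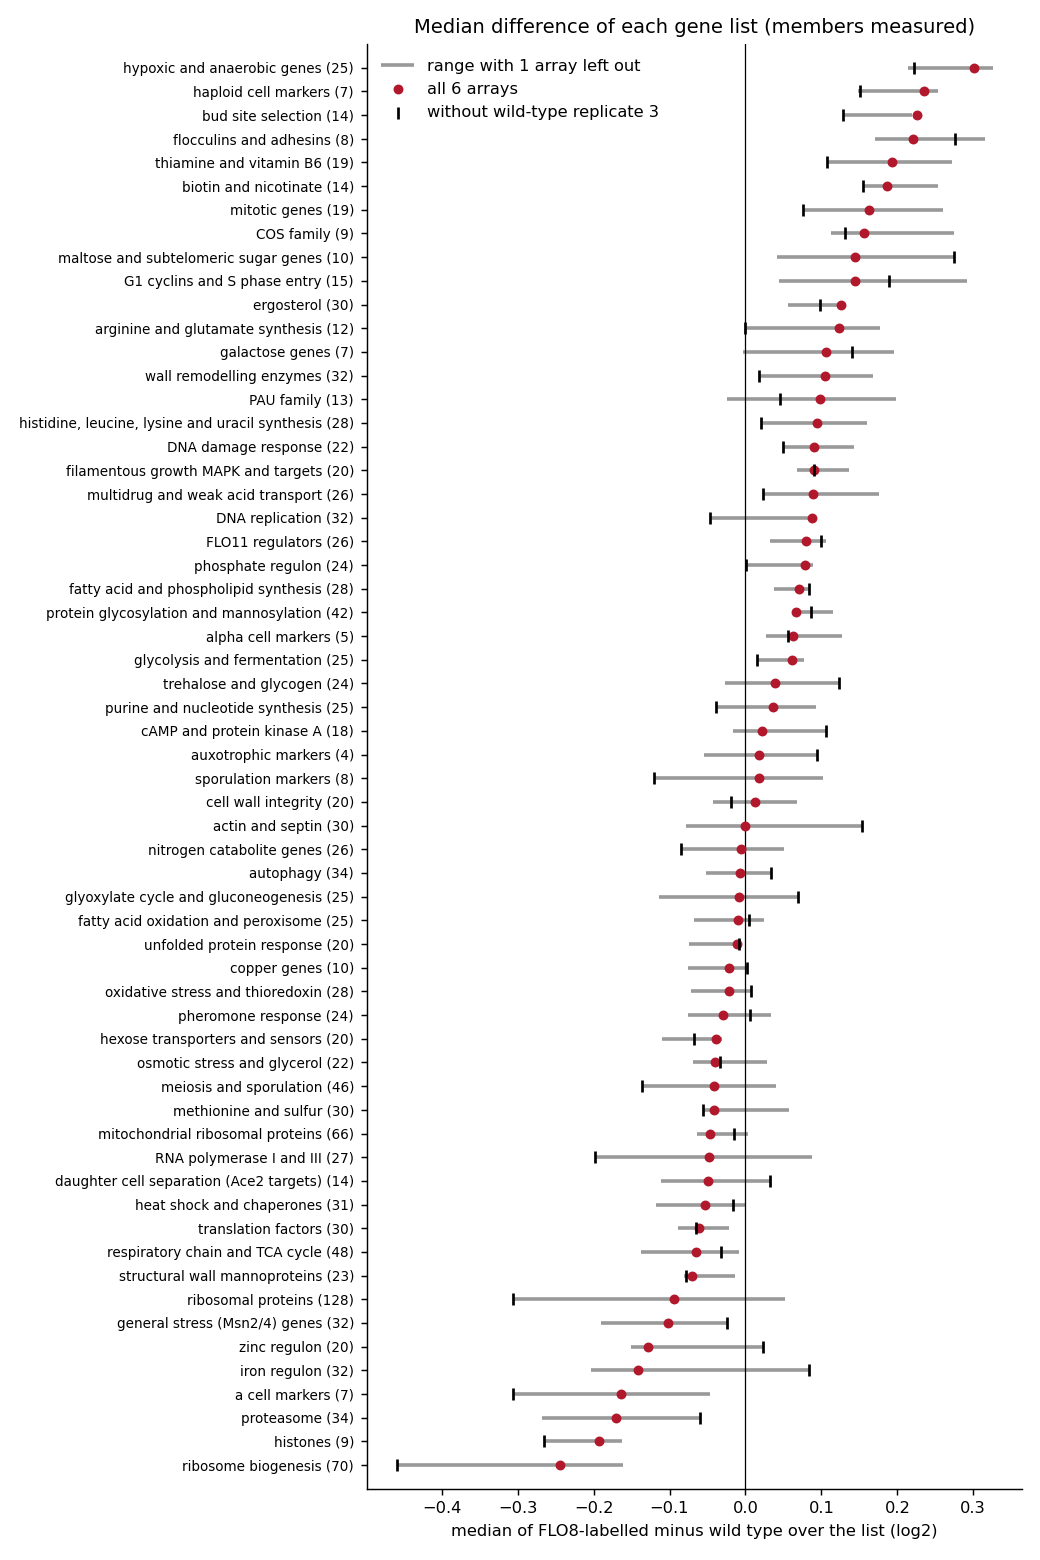
Median difference between the FLO8-labelled strain and the wild type (log2, horizontal axis) for each of 60 gene lists, with the number of genes measured in brackets; red points use all 6 arrays, grey bars give the range with 1 array left out and black ticks the value without wild-type replicate 3. Hypoxic genes (0.30) lie at the top and ribosome biogenesis (-0.24, or -0.46 without that array) at the bottom.

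In the other lists shown there, few genes passed. Of the 60 lists measured, 53 held no called gene, and among those the share of members with an unadjusted p under 0.05 ran from 0% to 42.9%, against 10.9% of all genes, and was highest for the 7 a cell markers. Among 26 genes of multidrug and weak acid transport, 3 were higher and 3 lower at that level, 23.1%. TPO3, a polyamine exporter, read 6.75, 6.77 and 7.02 log2 in the FLO8-labelled strain, against 7.66, 8.5 and 8.90 log2 in the wild type (-1.51, adjusted p = 0.231), and was called with the replicate block (adjusted p = 0.0261). The related exporter TPO1 differed by -0.73 log2 (adjusted p = 0.249) and WAR1, the factor of the weak acid response, by 0.43 (adjusted p = 0.331). Medians over the 16 chromosomes lay between -0.0047 and 0.0559 log2, near the 0.02 log2 of all genes.

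The flight arrays gave the same contrast in samples that the ground comparison did not use. In flight 0 of 5449 genes were called by limma (0%), 161 had an unadjusted p under 0.05 (2.95%), and the groups separated for 213 higher (3.91%) and 280 lower (5.14%) genes. The arrays were more spread there, 0.46 log2 from the group mean in the FLO8-labelled strain and 0.32 log2 in the wild type. All 9 ground calls had the same sign in flight, and 4 of them, FLO11, FLO1, TIR2 and FLO8, again had separate groups. FLO11 read 12.09, 12.16 and 13.02 log2 in the FLO8-labelled strain in flight, against 9.43, 9.11 and 8.11 log2 in the wild type in flight. The difference of 3.54 log2 (SE 0.41) was close in size to that on the ground and was not called (adjusted p = 0.285).

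FLO8 itself read 7.95, 8.31 and 7.88 log2 in the FLO8-labelled strain in flight, against 9.43, 9.11 and 8.94 log2 in the wild type in flight (-1.11, SE 0.23). FLO1 differed by 1.26 log2 (SE 0.48) and TIR2 by 1.00 (SE 0.32). STL1 was the least stable, at 9.05, 13.46 and 10.05 log2 in the FLO8-labelled strain in flight and 10.71, 10.09 and 14.05 log2 in the wild type in flight, a difference of -0.77 with an SE of 1.37. The test of the ground contrast against the flight contrast called 0 genes (0%), with 98 at an unadjusted p under 0.05, and its adjusted p was 0.999 for each of the 9 genes. FUS3 had the lowest unadjusted value of the 9 in that test (0.0375), with 0.95 log2 on the ground and 0.35 in flight.

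Against the FLO1 overexpression strain on the ground, 22 of 5449 genes were called, 0.404%. This comparison shares the FLO8-labelled arrays with the one against the wild type, so the values stand side by side only. Of the 9 genes, 6 were called with the same sign, namely FLO11 (3.33, adjusted p = 0.00641), TIR2 (0.80), FUS3 (0.45), HPF1 (-0.77), YLR012C (-0.95) and FLO8 (-1.61). FLO11 read 8.86, 8.70 and 8.98 log2 in the FLO1 strain, so its high level was found in the FLO8-labelled strain and in neither other ground group. FLO8 read 9.37, 9.49 and 9.24 log2 in the FLO1 strain, close to its level in the wild type.

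FLO1 had the opposite sign there, since the overexpression strain read 12.90, 12.65 and 12.54 log2. The FLO8-labelled strain lay between the overexpression strain (a difference of -2.75 log2, SE 0.14, limma adjusted p = 0.000155) and the wild type (1.48 log2). STL1 (-0.51, adjusted p = 0.632) and HTL1 (-0.42, adjusted p = 0.238) were not called against the FLO1 strain, in which STL1 read 9.48, 7.63 and 8.34 log2. Against the same wild-type arrays the FLO1 strain differed by -2.20 log2 for STL1 (SE 0.48) and by -0.65 log2 for HTL1 (SE 0.15). Neither was called (limma adjusted p = 0.368 and 0.381). AGA2, not called against the wild type, was called against the FLO1 strain (-1.38, adjusted p = 0.00641), as were SPS100 (-0.93), PHD1 (0.62) and PRM7 (1.79). AAC3 was called as well (0.84, adjusted p = 0.0195). ROX1 (0.10), HXT3 (-0.03), HXT1 (-0.44), PDE2 (0.15) and the glucose repressor gene MIG2 (-0.53) were not called against the FLO1 strain. They were lower in the FLO1 strain than in the wild type too, by -0.92, -1.09, -1.41, -0.69 and -1.33 log2 in that order. None of these differences was called (limma adjusted p from 0.368 to 0.508). The differences of both engineered strains from the wild type share the 3 wild-type arrays. Whether these lower levels are particular to the FLO8-labelled strain was therefore not tested.

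**Figure D5:**
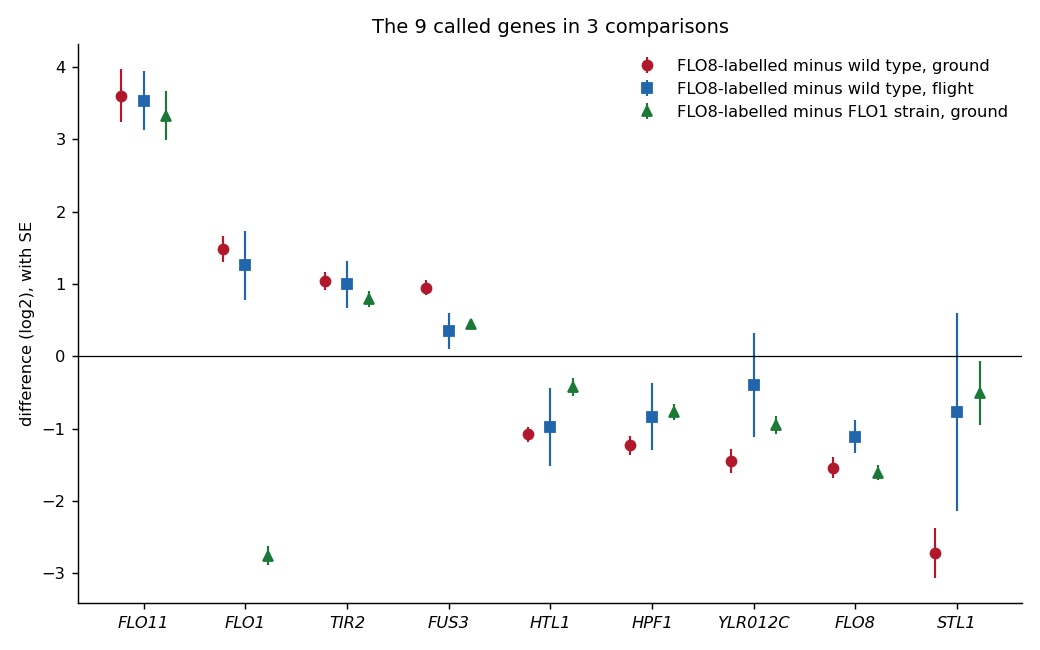
Difference (log2, vertical axis, with SE) of the 9 called genes in 3 comparisons: FLO8-labelled strain minus wild type on the ground (red circles), the same in flight (blue squares) and FLO8-labelled strain minus FLO1 strain on the ground (green triangles). FLO11 lies between 3.33 and 3.61 in all 3, and FLO1 is above 0 against the wild type and at -2.75 against the FLO1 strain.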

How the data were processed

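Expression was measured on 17 arrays, of which 6 form the comparison. The authors deposited 1 log2 level for each probe set. The submitters' processing notes name MAS5, RMA and affy (version 1.26.1), with no role given for each. No further normalization was applied. Of 10928 probe sets, 5498 are annotated to S. cerevisiae and 3517 carry no gene name and were not used here. For 47 genes with several probe sets the one with the highest mean over all 17 arrays was kept, and 12 symbols were updated, leaving 5449 genes. The array design's build is not given in the sources used here, so no coordinates or sequences are printed, and R64 served only for names and neighbours.

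The 2 group means were fitted to the 6 arrays with limma 3.58.1 in R 4.3.3, moderated with eBayes, two-sided, and checked on simulated data. The flight contrast, the comparison with the FLO1 strain and the difference of the ground and flight contrasts were fitted likewise. So was the FLO1 strain minus the wild type on the ground. The deviations of same-numbered replicates had correlations of 0.10, 0.26 and 0.53, and the replicate number, taken from the titles, was also fitted as a block. FLO8-labelled replicate 1 correlated more with wild-type replicate 2 (0.56), and FLO8-labelled replicate 2 slightly more with wild-type replicate 1 (0.29). The pairing by number is therefore uncertain. Alternatives covered the arrays in the fit, array weights, scaling, filters, probe set choice, RNA integrity and each array left out.

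The members and the 61 gene lists were chosen with earlier results of these data known. Genes named are all flocculin, adhesin and marker genes, called genes, up to 4 members with the lowest p in each list described, and 3 neighbours on each side of FLO8 and FLO11. Others (PHD1, STE12, NRG1, AAC3, IME1 and the genes under other observations) were chosen after their values were seen. The number of arrays limits the precision.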

Additional observations from a re-analysis of the deposited data

How the results depend on the processing

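The 9 differences kept their sign under every alternative, but their calls did not. The count of 9 was 2 with all 17 arrays in the fit (FLO8 and FLO11) and 14 with the 9 ground arrays (8 shared). With array weights it was 604, where wild-type replicate 3 had a weight of 0.144 and FLO8-labelled replicate 2 a weight of 7.57. The count was 4 with quantile normalization, 22 with the replicate block and 0 with the 3′ minus 5′ covariate (366 at an unadjusted p under 0.05). With 1 array left out it ran from 0 to 85, where the settings with 0 calls passed 232 to 568 genes at an unadjusted p under 0.05. It was 10 after median centring and 9 with an intensity trend, with genes above background alone and with the mean of a gene's probe sets, and 8 with a difference of at least 1 log2. In flight the count of 0 was 2 with all 17 arrays and 0 with any 1 array left out. Against the FLO1 strain the count of 22 was 10 with the 9 ground arrays, 8 to 153 with 1 array left out and 8 with the replicate block, added after the data were seen. Same-numbered replicates did not deviate together in flight (0.64, -0.50 and -0.51) or against the FLO1 strain (0.20, -0.42 and -0.41), so there they share only a number, and in flight the block gave 0 calls. On the ground the block ended none of the 9 calls and added 13, those given beside their values and YHR054C, YMR175W-A and SLF1; it changed no other call. Genes close to background, such as HTL1 at 5.16 log2 in the FLO8-labelled strain, are limited by signal.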

Other observations

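Genes that separated the strains in both conditions included several not yet described. These were chosen after their values were seen and have no test of their own. Of the 594 genes with separate, higher groups on the ground, 51 (8.59%) were separate and higher in flight too, against 3.91% of all genes. Of the 446 lower ones, 69 (15.5%) were lower in flight too, against 5.14% of all genes. An unadjusted p under 0.05 in both conditions was found for 38 of these, 8 higher and 30 lower.

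The 30 lower genes included coding genes of Ty retrotransposons, mobile elements present in many copies, whose probe sets read several copies at once. YAR009C read 11.20, 10.63 and 11.46 log2 in the FLO8-labelled strain on the ground, against 11.63, 12.38 and 13.03 log2 in the wild type. It differed by -1.25 log2 on the ground and by -1.76 log2 in flight. YDR261C-D differed by -1.02 and -1.33 log2, YDR261W-B by -0.77 and -1.12 log2, YBL100W-B by -0.65 and -0.93 log2 and YBL100W-A by -0.56 and -0.82 log2, each on the ground and in flight in that order. YDR261C-D was called on the ground with the replicate block (adjusted p = 0.0452). CSN9, a subunit of the COP9 signalosome, differed by -0.77 log2 on the ground and -1.32 log2 in flight, and YHR054C by -0.94 and -0.93 log2. The YHR054C probe set is of the kind that can read related genes. The kinetochore gene NDC80 differed by -0.58 and -1.17 log2, and the formin gene BNR1 by -0.60 and -0.96 log2.

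Of the genes not called on the ground, 3 more that were called with the replicate block are given here. CMR3, a zinc finger gene, read 11.13, 11.32 and 11.27 log2 in the FLO8-labelled strain, against 9.95, 10.18 and 10.41 log2 in the wild type (1.06, adjusted p = 0.0627, and 0.0224 with the block). MIG2, a glucose repressor, read 6.63, 6.54 and 6.12 log2 in the FLO8-labelled strain, against 8.89, 8.01 and 7.97 log2 in the wild type (-1.86, adjusted p = 0.0818, and 0.00532 with the block). YAL064W, a gene near FLO9 on the same chromosome arm, differed by 1.10 log2 (adjusted p = 0.140, and 0.0261 with the block).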
